A study of Mus musculus with 8 samples.

Results

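Klrg1 and the cytotoxic effector genes were followed in regulatory T cells (Treg) of the bone marrow (BM) and the spleen (SP). The 10 genes were chosen by name out of 38215 genes listed: the receptor genes Klrg1, Klrd1, Klrc1 and Klrk1, the granule genes Gzma, Gzmb, Prf1 and Nkg7, and the genes of the secreted factors Ccl5 and Ifng. RNA was sequenced from FoxP3+ Treg that were sorted from each tissue by their GFP, with 4 libraries of BM-Treg and 4 of SP-Treg. The donors of both groups were B6.FoxP3-GFP reporter mice, labelled C57Bl/6, at the age of 12 weeks, and the labels name no treatment. By the labels, BM-Treg replicates 1 to 3 came from females and were sequenced in batch 1, while BM-Treg replicate 4 and all 4 of the SP-Treg libraries came from males and were sequenced in batch 3. Tissue, sex and batch therefore cannot be told apart for BM-Treg replicates 1 to 3, and values within batch 3 rest on 1 BM-Treg library. The study's methods, unlike these labels, describe its mice as female unless otherwise indicated.

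Killer lectin-like receptors sit on NK cells and on antigen-experienced T cells. KLRG1 is an inhibitory receptor for cadherins, CD94 (the product of Klrd1) pairs with NKG2A (Klrc1) to recognise Qa-1, and NKG2D (Klrk1) recognises stress-induced ligands. Cytotoxic lymphocytes kill by releasing granules in which perforin opens a path for granzymes. In Treg, KLRG1 marks a differentiated subset, and granzyme B has been described as a means of suppression.

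The expected counts of a library added up to at least 12427136 and at most 21921252. The median total was 19025999 for BM-Treg, against 13108535 for SP-Treg. A single count was worth between 0.0438 and 0.0836 CPM (normalised counts, scaled to library totals with TMM factors) in these libraries. No molecular identifiers were used in the amplification, so such floors cover counting error only. The libraries of a tissue are described as biological replicates, without a statement of whether each came from 1 animal or from a pool. The bracketed sample names of SP-Treg hold number ranges that overlap and could stand for pools with shared animals, which the labels do not settle. Each n therefore counts libraries. The p-values weigh the difference between the tissues against the spread between these libraries, taken as independent. If SP-Treg libraries shared animals, that spread could be too narrow and the p-values too small.

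Markers of Treg were checked first. The 6 Treg markers (Foxp3, Il2ra, Ctla4, Ikzf2, Cd3e and Cd4) summed to 7209, 7709, 8256 and 8562 CPM in BM-Treg replicates 1 to 4 and to 8123, 7911, 8730 and 8160 CPM in SP-Treg replicates 1 to 4. The libraries of the tissues overlapped for each of the 6. By edgeR's quasi-likelihood test 0 of the 6 were called at a Benjamini-Hochberg adjusted p of 0.05, beside 8.75% of all genes tested. In that test 1 of the 6 (Il2ra) had an unadjusted p under 0.05. DESeq2 called 1 of the 6 and limma-voom 0, beside 1703 and 1210 of the 13397 genes tested.

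SP-Treg replicate 2 stood apart in markers of other cells. The 3 B cell markers, led by Cd79a, summed to 69.5 CPM in that library, against 2.23, 11.2 and 7.63 CPM in SP-Treg replicates 1, 3 and 4, and 3.89, 3.94, 4.60 and 2.34 CPM in the BM-Treg libraries. The 2 CD8 T cell markers, led by Cd8b1, summed to 12.6, 11.8, 12.04 and 10.9 CPM in BM-Treg and to 13.2, 41.0, 22.7 and 16.6 CPM in SP-Treg. The 8 NK cell markers, led by Eomes, summed to 0.328, 0.324, 0.482 and 0 CPM in BM-Treg and to 0.790, 5.26, 3.01 and 2.79 CPM in SP-Treg. For both CD8 T cell and NK cell markers each SP-Treg library lay above each BM-Treg library, and SP-Treg replicate 2 was the highest. The defining NK cell markers Ncr1 and Klrb1c were at 0 in the 4 BM-Treg libraries, and Ncr1 was at 0 in SP-Treg replicate 1 as well. Cd8a was the 1 called gene among the 2 CD8 T cell markers, where 8.75% were called over all genes tested. Its log2 fold change was -2.99 ± 0.69 (SE, n = 4 per group, BM-Treg over SP-Treg), with an adjusted p of 0.0293 by edgeR's quasi-likelihood test. Without SP-Treg replicate 2 the log2 fold change of Cd8a was -2.12, at an adjusted p of 0.0142 by edgeR's quasi-likelihood test. Cd8a stayed called without SP-Treg replicate 1, 3 or 4 as well, at 0.0019, 0.0493 and 0.0465 by that test. The call was lost without BM-Treg replicates 1 to 4 in turn, at 0.102, 0.0656, 0.102 and 0.0904 by the same test. Among the 10 cytotoxic effector genes, 8 had their highest SP-Treg value in replicate 2. For each of the 10 genes a result is therefore also given without that library.

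Of the 10 genes, 7 had enough counts to be tested, and Klrd1, Klrc1 and Klrk1 did not. Klrg1 was called higher in BM-Treg, and Gzma and Gzmb were called lower. Across the 13397 genes tested, 8.75% were called, 3.72% as higher and 5.02% as lower in BM-Treg. The median log2 fold change was 0.43 over the 7 genes and -0.01 over the 13397. Klrg1 and Ccl5 had each BM-Treg library above each SP-Treg library, as had 7.6% of the genes tested. The opposite order was found in 8.56% of the genes tested. Klrc1 had that order too, but it was below the filter and is not part of that share.

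**Figure D1:**
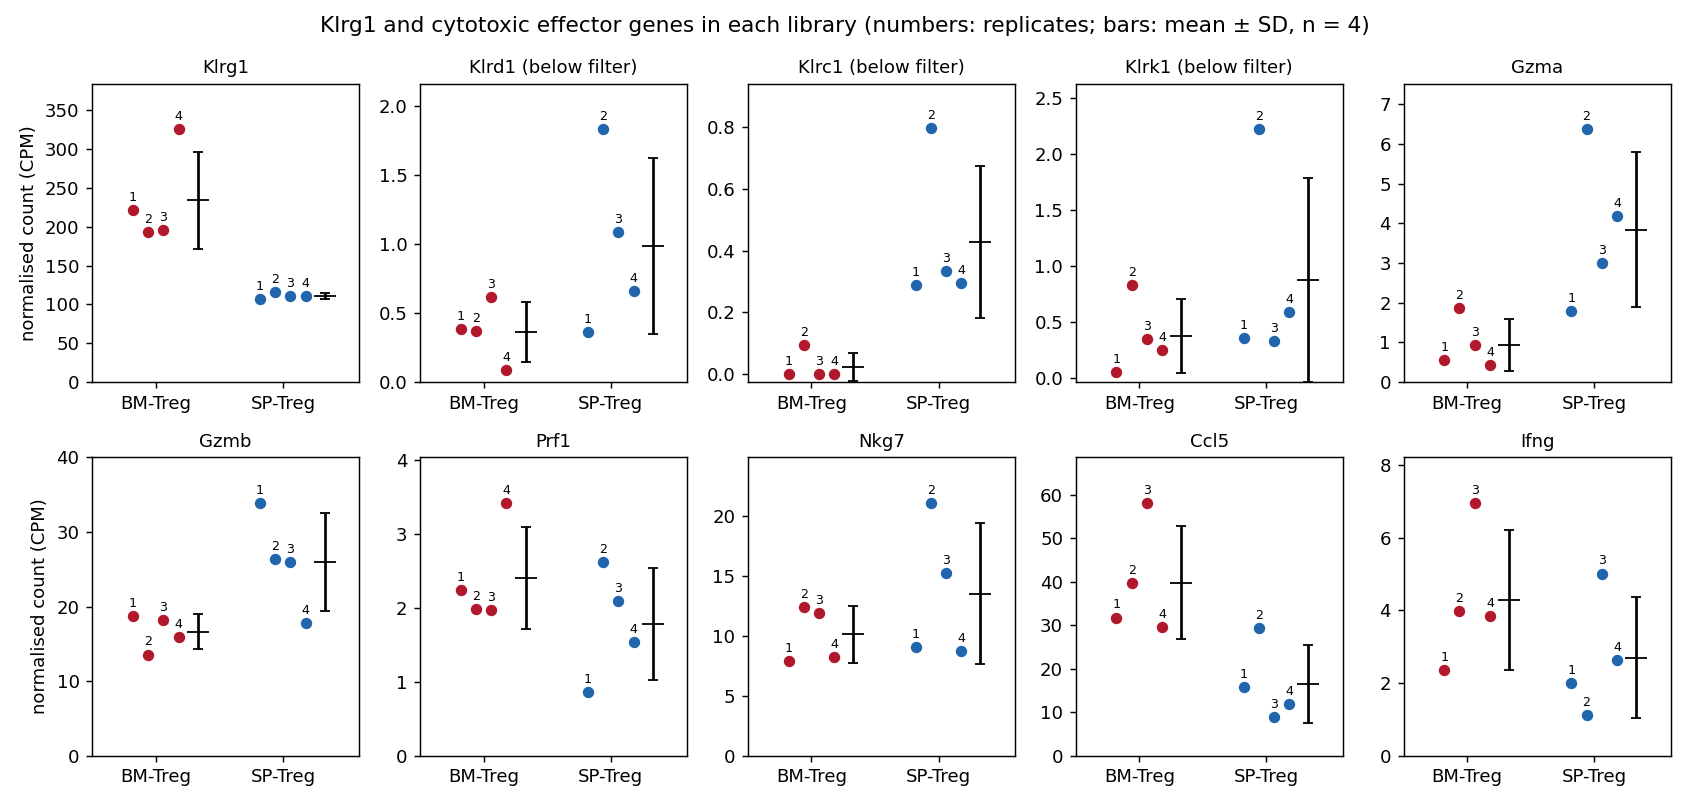
Normalised count (CPM, linear axis) of the 10 genes in each library. Points are libraries numbered by replicate, and bars give the mean ± SD of 4 libraries. The 4 BM-Treg libraries lie above the 4 SP-Treg libraries for Klrg1 and Ccl5, and SP-Treg replicate 2 is the highest point for Klrd1, Klrc1, Klrk1, Gzma and Nkg7.

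Klrg1 had the highest level per length (FPKM) of the 10 genes in both tissues. Klrg1 (ENSMUSG00000030114, chr6:122270596-122282882, minus strand, GRCm38) measured 221, 194, 196 and 326 CPM in BM-Treg replicates 1 to 4 and 106, 116, 111 and 111 CPM in SP-Treg replicates 1 to 4. The 4 SP-Treg libraries lay close together, and the lowest BM-Treg library was still above the highest of them. BM-Treg replicate 4, which shared sex and batch with SP-Treg, was the highest of the 8. The mean was 234 ± 62.4 CPM in BM-Treg compared with 111 ± 3.95 CPM in SP-Treg (SD, n = 4), a 2.11-fold higher level with a log2 fold change of 1.07 ± 0.15 (SE). Its adjusted p was 0.00105 by edgeR's quasi-likelihood test, and an exact two-sided permutation test gave p = 0.0286, the smallest that 4 against 4 libraries allow. Klrg1 had a log2 fold change of 1.55 within batch 3, without SP-Treg replicate 2 it was 1.09, and without BM-Treg replicate 4 it was 0.87. Klrg1 was called in each of the 17 fits that gave a test, with log2 fold changes from 0.87 to 1.55. The tables list 1 transcript for Klrg1, so the difference cannot be split by isoform.

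The NK receptor genes, in contrast, were at the edge of detection. Klrd1 (ENSMUSG00000030165), which encodes the CD94 chain, had 7, 8, 14 and 1 counts in BM-Treg and 5, 23, 13 and 9 counts in SP-Treg. Klrk1 (ENSMUSG00000030149), which encodes NKG2D, had 1, 18, 8 and 3 counts in BM-Treg and 5, 28, 4 and 8 counts in SP-Treg. Klrc1 (ENSMUSG00000030167), which encodes the NKG2A chain, had 0, 2, 0 and 0 counts in BM-Treg and 4, 10, 4 and 4 counts in SP-Treg. Klrd1 and Klrk1 overlapped between the tissues, and SP-Treg replicate 2 was the highest library for the 3 genes. The SP-Treg mean was 0.985 CPM for Klrd1, 0.428 CPM for Klrc1 and 0.878 CPM for Klrk1. Without SP-Treg replicate 2 it was 0.702, 0.305 and 0.427 CPM. Only Klrc1 separated the tissues among the 3, on 2 counts in all BM-Treg libraries together and 22 in all SP-Treg libraries together. No fold is given for Klrc1 because 3 of its BM-Treg libraries were at 0. When genes were kept without a filter beyond 1 count in total, the adjusted p in edgeR's quasi-likelihood test was 0.0798 for Klrc1, 0.314 for Klrd1 and 0.433 for Klrk1, so that none of them was called.

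The 3 NK receptor genes share a place as well as low counts. Klrd1, Klrk1 and Klrc1 lie within 87.2 kb of chromosome 6 (chr6:129591782-129678973), and Klrg1 lies 7.31 Mb away on the same chromosome. The 5 genes of that interval are Klrd1, Klrk1, Klrc3, Klrc2 and Klrc1, and none of them passed the filter. Klrc2, an activating partner of CD94, had 0, 1, 0 and 0 counts in BM-Treg and 2, 16, 13 and 6 counts in SP-Treg. Klrc3 had no count in BM-Treg and 0, 2, 5 and 0 counts in SP-Treg. Together Klrc1, Klrc2 and Klrc3 held 3 counts in BM-Treg and 66 in SP-Treg, with 6, 28, 22 and 10 in SP-Treg replicates 1 to 4. Klrc2 and Klrc3 were singled out after their values were seen. These paralogs are alike in sequence, so the split of reads among them is uncertain. The summed NK cell markers had the same order of SP-Treg libraries, with replicate 2 highest, then replicates 3 and 4, and replicate 1 lowest. The part of NK cells in these counts was not tested. In bulk RNA, fewer cells that express a gene and less RNA of it per cell cannot be told apart.

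**Figure D2:**
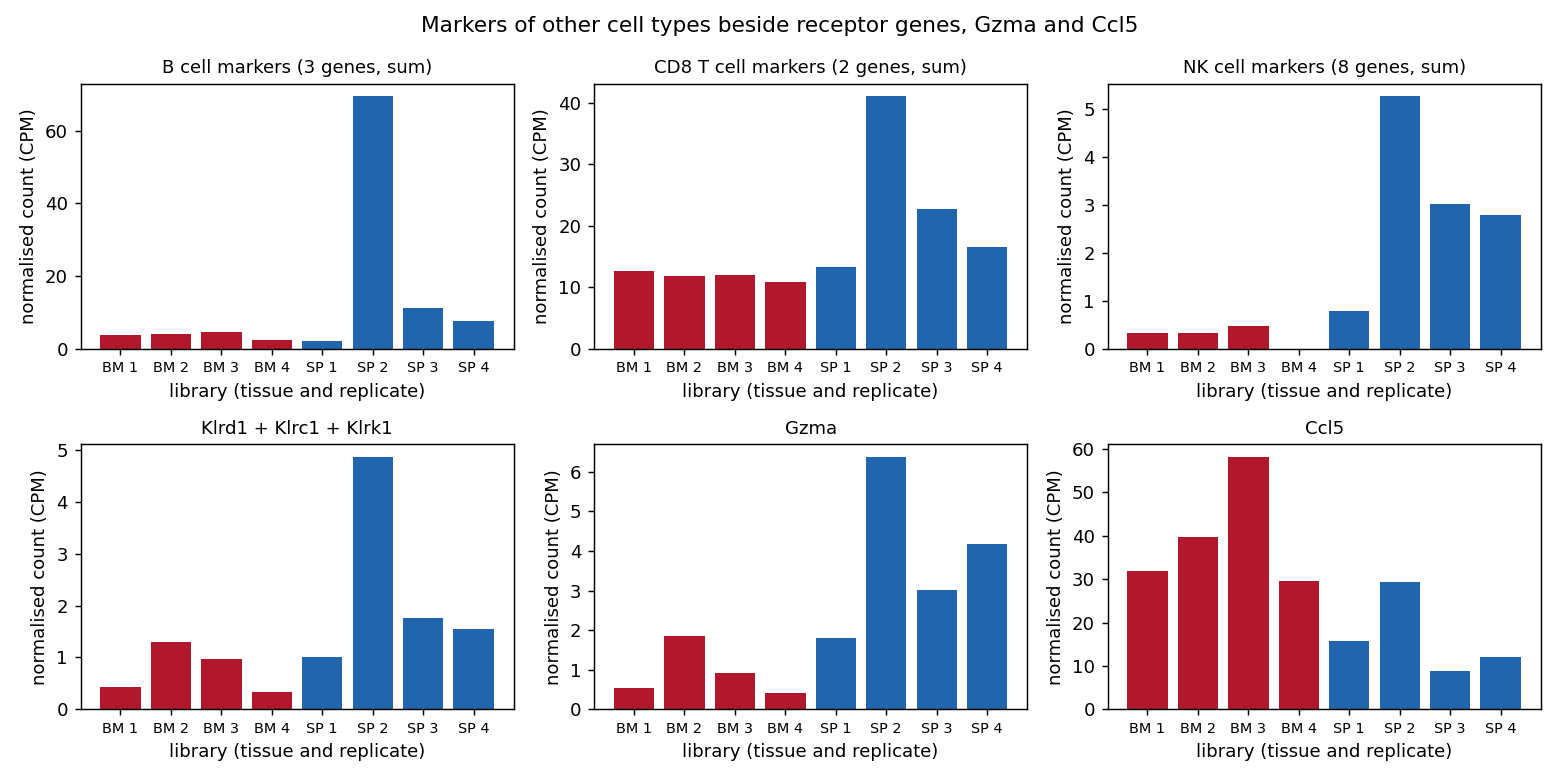
Normalised count (CPM, linear axes from 0) in each library for the summed B cell, CD8 T cell and NK cell markers, the sum of Klrd1, Klrc1 and Klrk1, Gzma and Ccl5. SP-Treg replicate 2 holds the highest marker sums and a sum of 4.86 CPM for the 3 receptor genes, against 1.01, 1.76 and 1.54 CPM in SP-Treg replicates 1, 3 and 4.

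In the wider receptor family few genes could be tested. Of 28 names of killer lectin-like receptors and related genes, 27 were found and 4 were tested, and Klrg1 was the 1 gene called, where 8.75% were called over all genes tested. The 3 others tested were Klrg2, Klrb1f and Cd69. Cd69, an early activation and retention receptor, measured 40.2, 44.0, 49.5 and 58.3 CPM in BM-Treg compared with 44.7, 42.9, 49.99 and 50.3 CPM in SP-Treg, so that the tissues overlapped. Among 15 ligands and adaptors of these receptors, 9 were tested and 1 was called in each direction, compared with 3.72% called higher and 5.02% called lower over all genes tested. Hcst, which encodes the DAP10 adaptor of NKG2D, was at 18.7 ± 1.56 CPM in BM-Treg compared with 11.8 ± 3.22 CPM in SP-Treg (SD, n = 4). Its log2 fold change was 0.67 and its adjusted p by edgeR's quasi-likelihood test was 0.0367. Ptpn6, which encodes the phosphatase SHP-1 that inhibitory receptors recruit, was at 39.3 ± 3.09 CPM in BM-Treg and at 70.8 ± 9.63 CPM in SP-Treg. Its log2 fold change was -0.85 and its adjusted p by edgeR's quasi-likelihood test was 0.00105. Ptpn6 was called in each of the 8 fits that left out 1 library, but not with a batch term, where the adjusted p of edgeR's quasi-likelihood test was 0.0524 for Ptpn6 and 0.285 for Hcst, at log2 fold changes of -0.86 and 0.61. Hcst was lost without BM-Treg replicates 2, 3 or 4 or SP-Treg replicates 1, 2 or 3, each left out alone, with an adjusted p from 0.0560 to 0.0983 by edgeR's quasi-likelihood test.

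The 2 granzyme genes tested, Gzmb and Gzma, were both called lower in BM-Treg. Gzmb (ENSMUSG00000015437, chr14:56258856-56262260, minus strand), which encodes the caspase-activating granzyme B, measured 18.7, 13.6, 18.2 and 16.0 CPM in BM-Treg compared with 33.9, 26.4, 25.9 and 17.8 CPM in SP-Treg. SP-Treg replicate 4 lay within the BM-Treg range, below BM-Treg replicates 1 and 3, and the other SP-Treg libraries lay above it. The mean was 16.6 ± 2.36 CPM in BM-Treg, while it was 26.0 ± 6.57 CPM in SP-Treg (SD, n = 4), and BM-Treg was 36.1% lower by the fit. Gzmb had a log2 fold change of -0.65 ± 0.18 (SE), with an adjusted p of 0.0384 by edgeR's quasi-likelihood test. Within batch 3 the log2 fold change of Gzmb was -0.66. With batch as a term it was -0.71 with an adjusted p of 0.252 by edgeR's quasi-likelihood test, so that the call was lost. Of the 17 alternative fits that gave a test, 6 called Gzmb, DESeq2's Wald test among them at an adjusted p of 0.0159. Limma-voom, at an adjusted p of 0.0592, and limma-trend on both FPKM scales, at 0.147 and 0.148, did not call Gzmb. The call was also lost in 7 of the 8 fits that left out 1 library. By edgeR's quasi-likelihood test the adjusted p of Gzmb was 0.0656, 0.121, 0.0666 and 0.0861 without BM-Treg replicates 1 to 4 in turn, 0.136, 0.0797 and 0.0675 without SP-Treg replicates 1 to 3 in turn, and 0.00937 without SP-Treg replicate 4.

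Gzma was called at a far lower level. Gzma (ENSMUSG00000023132, chr13:113093825-113100979, minus strand), which encodes the tryptase granzyme A of NK cells and CD8 T cells, measured 0.547, 1.85, 0.919 and 0.418 CPM in BM-Treg compared with 1.80, 6.37, 3.01 and 4.18 CPM in SP-Treg. These values stood on 10, 40, 21 and 5 counts in BM-Treg and 25, 80, 36 and 57 counts in SP-Treg. BM-Treg replicate 2 lay just above SP-Treg replicate 1, and the other libraries did not overlap. The mean was 0.934 ± 0.648 CPM in BM-Treg, while it was 3.84 ± 1.95 CPM in SP-Treg (SD, n = 4), and BM-Treg was 74.8% lower by the fit. Gzma had a log2 fold change of -1.99 ± 0.49 (SE), with an adjusted p of 0.0216 by edgeR's quasi-likelihood test. Within batch 3 the log2 fold change of Gzma was -2.73. Without SP-Treg replicate 2 it was -1.64 with an adjusted p of 0.0757 by edgeR's quasi-likelihood test, so that the call was lost. It was lost as well without BM-Treg replicate 1, 3 or 4, with an adjusted p of 0.0682, 0.0633 and 0.0507 by edgeR's quasi-likelihood test and log2 fold changes of -1.77, -1.96 and -1.78. With batch as a term in the model the log2 fold change was -3.18 and the adjusted p of edgeR's quasi-likelihood test was 0.105. DESeq2's Wald test, limma-voom and limma-trend on both FPKM scales called Gzma, at adjusted p-values of 0.00162, 0.0347, 0.0292 and 0.0317. Of the 16 alternative fits that gave a test, 11 called it. The summed CD8 T cell and NK cell markers were likewise highest in SP-Treg replicate 2 and lower in each BM-Treg library than in each SP-Treg library, and their part in the Gzma difference was not tested.

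Prf1 and Nkg7 did not pass the test. Prf1 (ENSMUSG00000037202, chr10:61297836-61304263, plus strand), which encodes the pore-forming perforin, measured 2.24, 1.99, 1.97 and 3.43 CPM in BM-Treg compared with 0.862, 2.63, 2.09 and 1.54 CPM in SP-Treg. The highest value was in BM-Treg replicate 4 and the lowest in SP-Treg replicate 1, with overlap between them. The log2 fold change of Prf1 was 0.43 ± 0.39 (SE), with an adjusted p of 0.561 by edgeR's quasi-likelihood test, and within batch 3 it was 0.996. It was 0.67 without SP-Treg replicate 2, 0.21 without SP-Treg replicate 1 and 0.22 without BM-Treg replicate 4. Nkg7 (ENSMUSG00000004612, chr7:43437073-43438246, plus strand), a granule membrane protein that takes part in degranulation, measured 7.88, 12.4, 11.95 and 8.27 CPM in BM-Treg compared with 9.05, 21.1, 15.2 and 8.73 CPM in SP-Treg. The tissues overlapped, and SP-Treg replicate 2 was again the highest. The log2 fold change of Nkg7 was -0.41 ± 0.28 (SE), with an adjusted p of 0.421 by edgeR's quasi-likelihood test, and within batch 3 it was -0.60. Without SP-Treg replicate 2 it was -0.11.

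Since both tested granzyme genes were lower while the perforin gene was not called, the 250 bases before the RefSeq start of Gzma, Gzmb and Prf1 (build GRCm38.p6) are shown. They were searched on both strands for TGTGGT, the letters of a RUNX motif, GGTGTGA, of a T-box motif, and TGANTCA, of an AP-1 motif. Capitals mark the matches, and no matches overlapped.
Gzma, chr13:113100982-113101231, minus strand: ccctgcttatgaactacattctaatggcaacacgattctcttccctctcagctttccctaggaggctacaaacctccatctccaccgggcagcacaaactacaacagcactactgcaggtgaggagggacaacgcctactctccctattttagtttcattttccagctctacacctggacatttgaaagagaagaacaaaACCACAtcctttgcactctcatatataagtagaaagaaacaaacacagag
Gzmb, chr14:56262335-56262584, minus strand: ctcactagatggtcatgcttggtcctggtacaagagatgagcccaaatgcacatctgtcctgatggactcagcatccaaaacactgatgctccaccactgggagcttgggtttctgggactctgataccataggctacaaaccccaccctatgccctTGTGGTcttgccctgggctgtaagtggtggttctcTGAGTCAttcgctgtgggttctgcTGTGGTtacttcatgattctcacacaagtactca
Prf1, chr10:61297586-61297835, plus strand: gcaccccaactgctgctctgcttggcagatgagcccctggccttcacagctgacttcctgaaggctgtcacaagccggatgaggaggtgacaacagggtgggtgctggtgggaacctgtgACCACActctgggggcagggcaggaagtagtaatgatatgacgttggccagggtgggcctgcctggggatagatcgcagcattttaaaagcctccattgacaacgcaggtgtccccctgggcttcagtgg
The RUNX letters were found once in the Gzma window, beginning 50 bases before the start on the opposite strand, and once in the Prf1 window. The Gzmb window held 2 of them, 93 and 34 bases before the start, with the AP-1 letters between them at 58 bases. That RefSeq start lies 74 bases before the start of Gzmb in the deposited tables, and from the latter the 2 RUNX matches begin at 167 and 108 bases and the AP-1 match at 132. For Gzma the starts were 2 bases apart, and for Prf1 they were the same. None of the 3 windows held the T-box letters. Among 32851 RefSeq promoter windows of this length, 14.0% held the RUNX letters, 6.75% the AP-1 letters and 3.33% the T-box letters. Such matches describe the sequence and show no binding. Promoter windows were matched for 7 of the 10 genes.

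The wider granule pathway was read from lists. Of 10 granzymes, Gzma and Gzmb were the 2 tested. Gzmd, Gzme, Gzmg and Gzmn had no count, and Gzmc, Gzmk, Gzmm and Gzmf were below the filter, with a highest value of 2.79 CPM for Gzmk, in SP-Treg replicate 2. Among 13 genes of granule cargo, maturation and protection, Prf1 and Nkg7 included, 12 were tested, none was called higher in BM-Treg and 4 were called lower, with a list median of -0.41. Over all genes tested 5.02% were called lower. Ctsc, the protease that activates granzymes, was at 36.2 ± 3.33 CPM in BM-Treg compared with 50.9 ± 3.57 CPM in SP-Treg (SD, n = 4), a log2 fold change of -0.50. The others were serine protease inhibitors. Serpinb6b was at 11.01 ± 3.26 CPM in BM-Treg and at 25.3 ± 5.92 CPM in SP-Treg, with a log2 fold change of -1.21. Serpina3f had a log2 fold change of -1.38, and Serpina3g one of -0.54. Adjusted p-values by edgeR's quasi-likelihood test were 0.0132 for Ctsc, 0.00517 for Serpinb6b, 0.0172 for Serpina3f and 0.0362 for Serpina3g. Serpinb6b alone of these 4 was called in each fit that left out 1 library. Ctsc was lost without BM-Treg replicate 2, at an adjusted p of 0.0513 by edgeR's quasi-likelihood test. Serpina3f was lost without BM-Treg replicate 1 and without SP-Treg replicate 1, with adjusted p-values from 0.0534 to 0.0580 by the same edgeR test. Serpina3g was lost without BM-Treg replicates 1, 2 or 4 or SP-Treg replicates 1, 2 or 4, at 0.0748 to 0.112 by that test. With a batch term Serpina3f was still called, at an adjusted p of 0.0349 by edgeR's quasi-likelihood test, and Serpinb6b, Ctsc and Serpina3g were lost, at 0.243, 0.341 and 0.158. The log2 fold change was then -2.44 for Serpina3f, -0.84 for Serpinb6b, -0.31 for Ctsc and -0.71 for Serpina3g.

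Of 14 genes of granule release, 13 were tested, with 1 called in each direction, beside 8.75% of all genes tested, and with a list median of 0.04. Sytl2, an effector of RAB27A that docks granules, was at 215 ± 16.7 CPM in BM-Treg compared with 132 ± 24.1 CPM in SP-Treg (SD, n = 4), a log2 fold change of 0.70, and with an adjusted p of 0.00341 by edgeR's quasi-likelihood test. Stx11, a syntaxin needed for granule fusion, was at 43.9 ± 5.37 CPM in BM-Treg and at 74.1 ± 16.9 CPM in SP-Treg, with a log2 fold change of -0.76 and an adjusted p of 0.00623 by the same edgeR test. Each BM-Treg library lay above each SP-Treg library for Sytl2, as in 7.6% of all genes tested. Stx11 had the opposite order, as had 8.56%. Both genes were called in each fit that left out 1 library. Both were lost with a batch term, at adjusted p-values of 0.101 and 0.206 by the same edgeR test and log2 fold changes of 0.65 and -0.64.

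Ccl5 was the secreted factor with the clearer order of libraries. Ccl5 (ENSMUSG00000035042, chr11:83525778-83530518, minus strand), a chemokine of memory and effector T cells, measured 31.7, 39.6, 58.1 and 29.7 CPM in BM-Treg compared with 15.7, 29.2, 8.86 and 11.96 CPM in SP-Treg. The tissues did not overlap, but SP-Treg replicate 2 came close to BM-Treg replicate 4. The mean was 39.8 ± 12.9 CPM in BM-Treg, while it was 16.4 ± 8.98 CPM in SP-Treg (SD, n = 4), a 2.42-fold difference by the fit. The log2 fold change was 1.28 ± 0.38 (SE), with an adjusted p of 0.0809 by edgeR's quasi-likelihood test, so that Ccl5 was not called, and an exact two-sided permutation test gave p = 0.0286. Without SP-Treg replicate 2 the SP-Treg mean was 12.2 ± 3.44 CPM (SD, n = 3), the log2 fold change was 1.70 and the adjusted p of edgeR's quasi-likelihood test was 0.00561. DESeq2's Wald test gave an adjusted p of 0.0283 and limma-voom one of 0.0134, within a range of 0.00561 to 0.483 over the 17 fits, so that the call depended on the tool and on that library. Within batch 3 the log2 fold change of Ccl5 was 0.99. The transcript ENSMUST00000035938 held between 93.9% and 99.2% of the Ccl5 counts in each library.

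Ifng did not pass the test. Ifng (ENSMUSG00000055170, chr10:118441047-118445892, plus strand), which encodes interferon gamma, measured 2.35, 3.98, 6.96 and 3.84 CPM in BM-Treg compared with 2.01, 1.12, 5.02 and 2.64 CPM in SP-Treg. Replicate 3 was the highest in both tissues, and the tissues overlapped. The log2 fold change of Ifng was 0.68 ± 0.43 (SE), with an adjusted p of 0.374 by edgeR's quasi-likelihood test, and within batch 3 it was 0.68. It was 0.42 without SP-Treg replicate 2, 0.33 without BM-Treg replicate 3 and 1.15 without SP-Treg replicate 3.

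**Figure D3:**
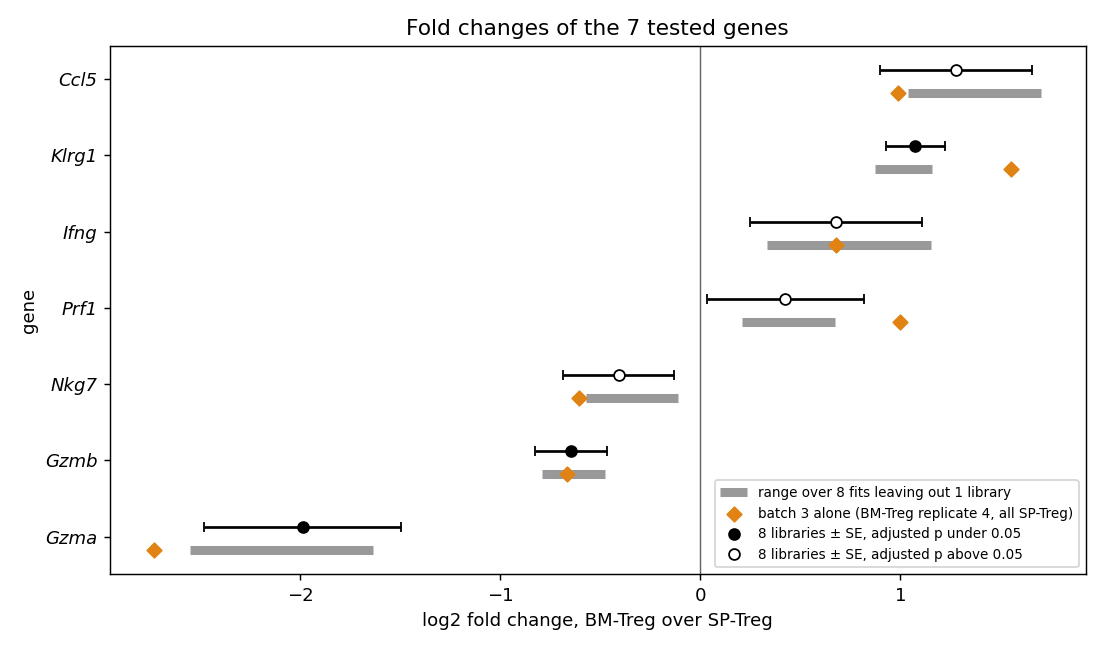
Log2 fold change of BM-Treg over SP-Treg for the 7 tested genes. Circles give the value over 8 libraries ± SE, filled where the adjusted p was under 0.05, grey bars the range when 1 library was left out, and diamonds the value within batch 3, which holds 1 BM-Treg library. Klrg1 lies at 1.07 and Gzma at -1.99, and no gene changes side in these settings.

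Of 13 effector cytokines, chemokines and death ligands, Ccl5 and Ifng included, 6 were tested, and Tnf was the 1 called, where 8.75% were called over all genes tested. Tnf measured 10.9, 11.7, 9.89 and 15.0 CPM in BM-Treg compared with 20.5, 28.6, 28.5 and 26.7 CPM in SP-Treg. Each SP-Treg library lay above each BM-Treg library, as in 8.56% of all genes tested. The log2 fold change of Tnf was -1.14 ± 0.17 (SE) with an adjusted p of 0.00108 by edgeR's quasi-likelihood test. Its call held in each fit that left out 1 library, and within batch 3 the log2 fold change was -0.78. With batch as a term the call of Tnf was lost, at an adjusted p of 0.107 by edgeR's quasi-likelihood test and a log2 fold change of -0.79. Of the receptors for the 2 secreted factors, 3 of 4 in the list were tested and 2 were called higher in BM-Treg, compared with 3.72% of all genes tested. Ifngr1, the ligand-binding chain of the interferon gamma receptor, was at 323 ± 31.2 CPM in BM-Treg compared with 180 ± 34.3 CPM in SP-Treg (SD, n = 4), a log2 fold change of 0.84. Ccr3, a receptor that binds CCL5, was at 17.97 ± 0.945 CPM in BM-Treg and at 7.79 ± 2.26 CPM in SP-Treg, with a log2 fold change of 1.21. Adjusted p-values by edgeR's quasi-likelihood test were 0.00142 for Ifngr1 and 0.00234 for Ccr3, and both genes were called in each fit that left out 1 library. With a batch term they were lost, at 0.0911 and 0.0782 by the same edgeR test and log2 fold changes of 0.66 and 1.1.

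Genes upstream of the effector genes were read from 2 lists. Of the 8 genes of receptors for IL-2, IL-12, IL-15, IL-18, IL-21 and IL-27, 0 were called by edgeR's quasi-likelihood test, by DESeq2 or by limma-voom. Over all 13397 genes tested, edgeR called 8.75%, DESeq2 called 1703 genes and limma-voom 1210. Among the 8, 1 (Il21r) had an unadjusted p under 0.05 in edgeR's quasi-likelihood test. Of 14 effector transcription factors in the list, 13 were tested, and Id2 was the 1 called, as higher in BM-Treg, beside 8.75% of all genes tested. Id2, an inhibitor of E proteins, was at 33.6 ± 8.36 CPM in BM-Treg and at 21.2 ± 1.99 CPM in SP-Treg (SD, n = 4), a log2 fold change of 0.66 with an adjusted p of 0.0246 by edgeR's quasi-likelihood test. Id2 was lost without BM-Treg replicates 3 or 4 or SP-Treg replicates 1, 2 or 3, at adjusted p-values from 0.0568 to 0.0803 by edgeR's quasi-likelihood test, and with a batch term, at 0.0528 and a log2 fold change of 0.97. DESeq2 called 1 gene of this list and limma-voom 0. Tbx21, which encodes T-bet, overlapped between the tissues, at 2.35, 3.34, 4.29 and 4.51 CPM in BM-Treg and at 4.81, 4.94, 3.51 and 4.04 CPM in SP-Treg. Its relative Eomes was below the filter and overlapped between the tissues. Eomes measured 0.328, 0.278, 0.482 and 0 CPM in BM-Treg compared with 0.144, 2.63, 0.836 and 1.17 CPM in SP-Treg.

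Genes known from KLRG1+ Treg of tissues did not move as 1 block. The 13 genes in the list were tested, with 3 called higher and 4 lower in BM-Treg and a median of -0.34, beside 3.72% called higher and 5.02% called lower over all genes tested. Il1rl1, the IL-33 receptor, was at 67.7 ± 9.72 CPM in BM-Treg and at 32.8 ± 7.89 CPM in SP-Treg (SD, n = 4), a log2 fold change of 1.04. Fgl2, a secreted suppressive factor, had a log2 fold change of 1.02, and Gata3, a transcription factor of tissue Treg, had one of 0.43. These 3 were called in each fit that left out 1 library. Tigit, a co-inhibitory receptor, was at 347 ± 78.5 CPM in BM-Treg compared with 557 ± 60.4 CPM in SP-Treg, with a log2 fold change of -0.68, and it too was called in each such fit. Penk, at -1.23, Itgae, at -0.91, and Batf, at -0.56, were lower as well. Adjusted p-values by edgeR's quasi-likelihood test were 0.00245 for Il1rl1, 0.000909 for Fgl2, 0.00906 for Gata3, 0.0121 for Tigit, 0.0362 for Penk, 0.0276 for Itgae and 0.0483 for Batf. Without 1 library, the calls of Penk and Batf were lost for BM-Treg replicates 1, 2 and 4 and SP-Treg replicates 1, 2 and 4, with adjusted p-values up to 0.103 and 0.131 by the same edgeR test. The call of Itgae was lost without any 1 BM-Treg replicate and without SP-Treg replicate 2, at up to 0.0869 by that test. Il1rl1 alone of the 7 was called with a batch term, at an adjusted p of 0.0318 by edgeR's quasi-likelihood test and a log2 fold change of 1.23. With that term the others measured 0.72 for Fgl2, 0.46 for Gata3, -0.64 for Tigit, -1.69 for Penk, -0.84 for Itgae and -0.59 for Batf.

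**Figure D4:**
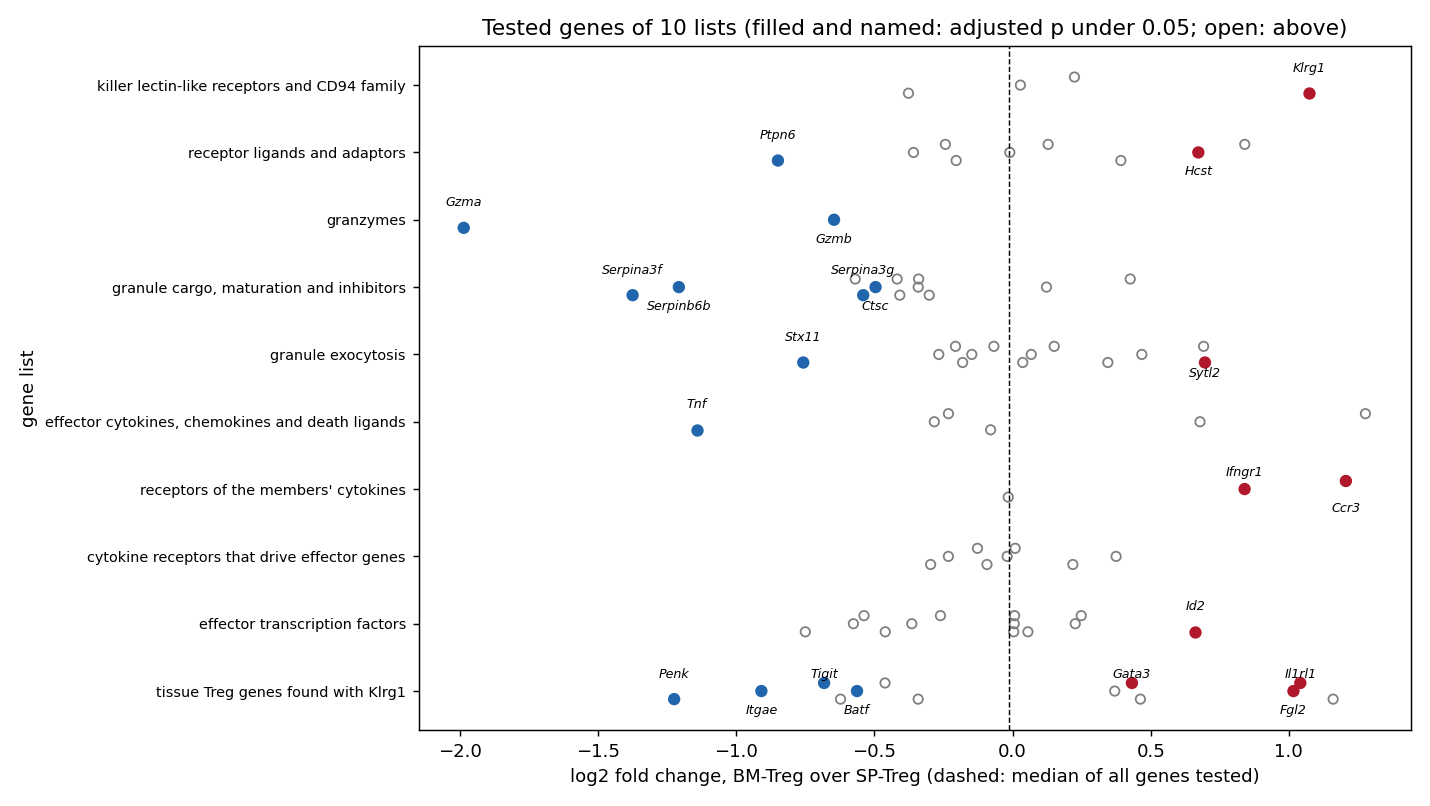
Log2 fold change of BM-Treg over SP-Treg for the tested genes of 10 lists, with 1 row per list. Filled points carry names and have an adjusted p under 0.05, red for higher and blue for lower in BM-Treg, and the dashed line is the median of all genes tested, -0.01. Granule cargo and granzyme genes are called only as lower, and the receptors of the secreted factors only as higher.

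Outside the 10 genes and the cell markers, the lists held 121 genes, of which 76 were tested, 8 were called higher and 11 lower in BM-Treg. That was 25% of those tested, beside 8.75% of all genes tested, in lists that were drawn up with earlier results of these data known. Together with Klrg1, Gzma and Gzmb, 22 genes were called. Of the 22, 12 were called in each of the 8 fits that left out 1 library, 14 were called without SP-Treg replicate 2, and 3 (Klrg1, Il1rl1 and Serpina3f) were called with batch as a term in the model. That fit sets 1 BM-Treg library against SP-Treg, so a call lost there does not show a smaller difference. Over all genes tested, 1172 were called in the main fit, 258 with the batch term and 888 without SP-Treg replicate 2. Those totals can include genes that the main fit did not call, so they are no background for the numbers kept among the 22. How many of the 1172 were kept is not given here. For the lists, leaving out SP-Treg replicate 2 and the batch term were alternatives chosen after the data were seen. The remaining markers of other cells overlapped between the tissues. The 2 gamma delta T cell genes found, led by Tcrg-C1, summed to 1.64, 1.34, 1.23 and 0.835 CPM in BM-Treg and to 0.718, 2.39, 4.93 and 5.80 CPM in SP-Treg. The 7 neutrophil genes, led by Ngp, summed to 2.41, 4.31, 1.31 and 9.86 CPM in BM-Treg compared with 0.215, 16.9, 8.86 and 6.68 CPM in SP-Treg. The 4 mast cell genes stayed at or under 0.294 CPM, with Mcpt4 and Tpsb2 at 0 in each library. The 4 plasmacytoid dendritic cell genes, nearly all of it Ccr9, summed to 39.5, 29.5, 32.96 and 39.8 CPM in BM-Treg and to 8.76, 22.1, 42.0 and 32.7 CPM in SP-Treg. Such a sum says little of the others. Siglech measured 0.821, 0.509, 0.744 and 0.167 CPM in BM-Treg and 0, 0.319, 0.334 and 0.22 CPM in SP-Treg. Klk1 and Cox6a2 stayed at or under 0.159 CPM.

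Levels were compared between genes per length, in FPKM. Klrg1 was highest, at 178 ± 39.2 FPKM in BM-Treg compared with 81.1 ± 3.72 FPKM in SP-Treg (SD, n = 4). Ccl5 was next in both tissues, at 88.7 ± 30.3 FPKM in BM-Treg and at 35.0 ± 18.4 FPKM in SP-Treg. In both tissues the libraries' ranges of Klrg1 and Ccl5 were separate. In BM-Treg, Nkg7 (12.97 ± 3.36 FPKM) and Gzmb (12.7 ± 1.92 FPKM) followed and overlapped with each other, well apart from Ccl5. In SP-Treg, Gzmb (19.1 ± 5.97 FPKM) came before Nkg7 (16.3 ± 6.49 FPKM), with Ccl5 and Gzmb overlapping as well. Ifng followed in BM-Treg at 3.89 ± 1.80 FPKM, apart from Gzmb above it and Prf1 below it. From there on, Prf1, Gzma, Klrd1, Klrk1 and Klrc1 overlapped with their neighbours in BM-Treg, at 1.24, 1.21, 0.60, 0.16 and 0.0175 FPKM. In SP-Treg the order below Nkg7 was Gzma, Ifng, Klrd1, Prf1, Klrc1 and Klrk1, at 4.61, 2.31, 1.67, 0.865, 0.488 and 0.373 FPKM, and each of these overlapped with the next. The SP-Treg means of Klrc1 and Klrk1 leaned on replicate 2, at 1.01 and 1.05 FPKM. In SP-Treg replicates 1, 3 and 4 Klrc1 was at 0.16, 0.31 and 0.47 FPKM, and Klrk1 at 0.16, 0.1 and 0.18 FPKM. Gzma thus ranked behind Ifng and Prf1 in BM-Treg, where its libraries overlapped with those of both, and ahead of both in SP-Treg, where they overlapped with those of Ifng.

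The genes whose profile over the 8 libraries was most like that of Klrg1 were found by the root mean square difference of centred log2 CPM among 8554 candidate genes. They were BC029214 at 0.14, S100a6 at 0.16, Impdh1 at 0.18, Emp3 at 0.18 and Adam8 at 0.18, against a median of 0.60 over the candidates. S100a6, a calcium-binding protein gene, was at 134 ± 28.7 CPM in BM-Treg compared with 73.5 ± 8.22 CPM in SP-Treg (SD, n = 4). Adam8, which encodes a surface metalloprotease, was at 47.9 ± 9.78 CPM in BM-Treg and at 24.0 ± 4.32 CPM in SP-Treg. For Gzmb the nearest were Kansl1l at 0.15, C1galt1c1 at 0.17, Tmem33 at 0.18, Fxr1 at 0.18 and Phactr2 at 0.18, against a median of 0.45. Of the 10 genes, Klrg1, Gzmb, Nkg7 and Ccl5 had the counts to be candidates, and none of them was among the 5 nearest of Klrg1 or of Gzmb.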

How the data were processed

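From 15 ng of RNA per sample, cDNA was made by single primer isothermal amplification, and single-end reads of 80 nt were taken. Expected counts, deposited by the authors without normalisation, are estimated numbers of reads per gene and transcript and need not be whole, while the FPKM values were scaled by length and depth by the authors. The submitters' processing notes name cutadapt 1.9, STAR 2.5.2a, RSEM 1.2.30 and the build GRCm38.

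Expected counts were rounded, filtered with edgeR's default rule (13397 of 38215 genes kept) and scaled by TMM. The test was edgeR's quasi-likelihood test, robust, without covariates. P-values were adjusted by Benjamini-Hochberg over all genes tested, at a threshold of 0.05. Software versions were edgeR 4.0.16, DESeq2 1.42.0 and limma 3.58.1 in R 4.3.3, and the fits were tested on simulated data. Log2 CPM values used a prior count of 2. Coordinates are those of the deposited tables. Libraries of a tissue differed beyond sampling noise in each pair, with a chi-square per degree of freedom from 14.6 to 88.5.

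Genes named are the 10 genes, each gene of a list that passed the test, the cell markers, and the 5 genes nearest to Klrg1 and to Gzmb among genes of a mean log2 CPM from 3 up. Genes singled out beside them were chosen after their values were seen. Of 171 list entries, 167 were found, and 2 further genes are not reported here. The genes and lists were chosen with earlier results of these data known. Alternatives were DESeq2's size factors and Wald test, limma-voom and limma-trend, the latter on log2 FPKM with pseudocounts of 1 and 0.1, a batch term or batch 3 alone, the replicate block, leaving out each library, no filter, and a filter of at least 10 counts in every library.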

Additional observations from a re-analysis of the deposited data

Results flagged for a closer look

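In 3 of the 20 groups of 4 libraries formed by the 10 genes and both tissues, 1 library lay far from the other 3 relative to the range of its group. Klrc1 was at 0.0926 CPM in BM-Treg replicate 2, while the other BM-Treg libraries were at 0. Klrc1 was at 0.797 CPM in SP-Treg replicate 2, and Klrk1 at 2.23 CPM in the same library. Chance flags about 1 in 20 groups, but this rate does not hold for Klrc1 in BM-Treg, where any count in 1 library beside 3 at 0 is flagged. The values stand on 2, 10 and 28 counts. SP-Treg replicate 2 also held the highest sums of B cell, CD8 T cell and NK cell markers, whose part in these values was not tested.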

How the results depend on the processing

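The number of genes called, 1172, was 765 with limma-trend on log2(FPKM + 1), 728 on log2(FPKM + 0.1) and 258 with a batch term, and from 690 to 1048 when 1 library was left out. It was 1703 with DESeq2's Wald test, 1326 without a filter, 1231 with at least 10 counts in every library, 1210 with limma-voom and 1157 with DESeq2's size factors. The number called among the 10 genes, 3, was 1 with a batch term (Klrg1), from 1 to 3 when 1 library was left out, 4 with DESeq2's Wald test, and 2 on both FPKM scales and with at least 10 counts in every library. On the FPKM scales 63.0% and 62.4% of the calls were higher in BM-Treg, against 42.6% in the count test. The cause of these shifts was not tested. Gzmb was not called with limma-voom, the FPKM scales or the batch term, with adjusted p-values of 0.0592, 0.147, 0.148 and 0.252 by limma and edgeR. No tested gene among the 10 changed direction in any setting. At least 10 counts in every library removed Gzma from the test. By the labels, same-numbered libraries of the tissues differed in sex and batch for replicates 1 to 3. Same-numbered libraries correlated at -0.11, 0.06, -0.18 and 0.04 in their deviations, and not each library correlated best with its own number. The BM-Treg deviations also hold the batch split, so these correlations cannot settle whether samples were paired. With the replicate block 948 genes were called, and 3 of the 10. Klrd1, Klrc1 and Klrk1 were below the main filter, and without a filter none of them was called.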
